A study of Homo sapiens with 24 samples.

Results

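Nonsense-mediated decay factors were followed through knockdown of the RNA helicase gene DDX3X in K562, an established human chronic myelogenous leukaemia line. The set was fixed by name as UPF1, UPF2, UPF3A, UPF3B, SMG1, SMG5, SMG6, SMG8 and SMG9, which are 9 of the 57992 genes in the count tables. The rule itself uses no measured value, but the factors were chosen with earlier results of these data known. Every one of the 9 passed the filter on low counts in both RNA-seq (18287 genes tested) and ribosome footprints (19780 genes tested). The cells carried a CRISPR interference system, in which a guide RNA brings a repressor to a promoter and doxycycline (50 ng/ml) switches the system on. The guide sgDDX3 was directed at DDX3X and the guide sgGal4 was the control, so that both arms share the interference machinery and the doxycycline. Samples were taken at day 0, day 3 and day 14. Doxycycline is listed for the day 0 libraries as well, and it is not said if the drug had been added by then, or if either arm was a single clone. Cytosolic RNA and cycloheximide-fixed, RNase I-trimmed ribosome footprints were sequenced in 24 libraries, a pair from every guide at every day in each assay.

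Nonsense-mediated decay removes mRNAs on which translation terminates in an unusual context, typically upstream of an exon junction complex left by splicing. UPF1 is an RNA helicase at the centre of the pathway, UPF2 bridges it to UPF3A or UPF3B, and the kinase SMG1, held in check by SMG8 and SMG9, phosphorylates UPF1. Phosphorylated UPF1 then recruits SMG6, an endonuclease that cuts the message, and SMG5, an adaptor that brings decapping and deadenylation. Transcripts of several of these factors are known to be targets of the pathway themselves, as are many small nucleolar RNA host genes and stress-response messages.

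On the RefSeq annotation of GRCh38.p14, UPF1 lies at chr19:18831959-18868230 (plus strand), UPF2 at chr10:11920022-12043170 (minus), UPF3A at chr13:114281601-114305817 (plus) and UPF3B at chrX:119805311-119852963 (minus). SMG1 lies at chr16:18804860-18926408 (minus), SMG5 at chr1:156249224-156291516 (minus), SMG6 at chr17:2059839-2303785 (minus), SMG8 at chr17:59210035-59215230 and SMG9 at chr19:43727983-43754962 (minus). SMG6 shares ends with the protein-coding genes HIC1 and SRR, and SMG5 overlaps TMEM79, so reads there may be hard to assign.

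Depth ran from 10266619 to 43256563 counts a library in RNA and from 6223963 to 15240512 in footprints. Levels are in CPM, the count of a gene relative to the library total after TMM scaling (which evens out library composition) in each assay, replicate 1 before replicate 2. DDX3X itself had 185 and 174 CPM of RNA with sgGal4 at day 3 against 39.0 and 33.7 with sgDDX3, a 4.89-fold lower level (log2 difference -2.29, SE 0.11, adjusted p = 1.6e-11 by edgeR's quasi-likelihood test with Benjamini-Hochberg adjustment, used for every adjusted p here unless another tool is named). At day 14 it was 1.65-fold lower (201 and 187 against 134 and 101 CPM, adjusted p = 4.03e-05), a smaller reduction than at day 3 (change of the log2 difference 1.57, SE 0.14, adjusted p = 7.16e-06). At day 0 DDX3X RNA was 215 and 203 CPM with sgGal4 and 175 and 185 with sgDDX3. Its footprints were then 154 and 151 CPM against 134 and 149. The sgDDX3 libraries lay below the sgGal4 libraries in both assays, but neither day 0 difference was called. Of 8 K562 markers 7 had at least 10 CPM of RNA in every library, and HBG1 had at most 0.288 CPM. MS4A1, MPO, KRT5 and COL3A1, which mark lymphoid, granulocytic, epithelial and fibroblast cells, had 0 counts, which allows up to 3 counts a library. Summed lymphoid markers had 6.6 to 9.5 CPM and summed monocyte and granulocyte markers 3.23 to 5.41 CPM. EPCAM, an epithelial marker, had 23.1 to 32.4 CPM and was lower with sgDDX3 at day 14 (-0.30, adjusted p = 0.0384). Summed epithelial and fibroblast markers then had 24.1 to 24.5 CPM against 29.7 to 31.1 with sgGal4. Among the K562 markers, ABL1 (0.57) and BCR (0.44) were higher and KLF1 (-0.56) and HBG2 (-0.38) lower with sgDDX3 at day 3, while ABL1 (0.41), BCR (0.39) and TFRC (0.30) were higher at day 14. A sum of the K562 markers is weighted to the most abundant, TFRC (624 to 1110 CPM), ABL1 (298 to 498) and BCR (206 to 314). KLF1 had only 43.4 to 77.3 CPM and HBG2 24.2 to 43.2. Summed K562 markers had 2050 to 2070 CPM with sgDDX3 and 1990 to 2060 with sgGal4 at day 0. At day 3 the sums were 1850 to 1940 CPM with sgDDX3 against 1600 to 1730 with sgGal4. At day 14 they were 1890 to 1940 against 1620 to 1640, so both arms were lower than at day 0, sgGal4 by more. These markers moved at the same days as the factors described here, and their part in those results was not tested. The RNA libraries of sgDDX3 at day 14 differed most from each other, by a median of 0.145 on the log2 scale over 9987 genes. The other RNA groups had 0.066 to 0.114. In that sgDDX3 pair 7 of the 9 factors were higher in replicate 1. The same count held in sgGal4 RNA at day 14 and in sgGal4 footprints at day 0. Nothing says that the replicates came from separate cultures, so a p-value reflects the spread of these libraries alone and that spread may be technical. In bulk libraries a level cannot be split into RNA per cell and share of cells.

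The upstream sequences of SMG1 and SMG9 are shown because these factors had the RNA levels furthest above and below the control in the knockdown. They are the 250 bases before the RefSeq start (GRCh38.p14), on the strand of the gene, for SMG1 at chr16:18926409-18926658 (minus strand) and for SMG9 at chr19:43754963-43755212 (minus strand). Capitals mark the GC box GGGCGG on either strand.
SMG1: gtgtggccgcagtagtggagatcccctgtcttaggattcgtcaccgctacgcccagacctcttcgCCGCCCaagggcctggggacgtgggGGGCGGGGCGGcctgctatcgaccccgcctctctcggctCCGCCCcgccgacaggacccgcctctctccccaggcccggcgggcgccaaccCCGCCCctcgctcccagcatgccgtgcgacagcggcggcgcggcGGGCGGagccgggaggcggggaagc
SMG9: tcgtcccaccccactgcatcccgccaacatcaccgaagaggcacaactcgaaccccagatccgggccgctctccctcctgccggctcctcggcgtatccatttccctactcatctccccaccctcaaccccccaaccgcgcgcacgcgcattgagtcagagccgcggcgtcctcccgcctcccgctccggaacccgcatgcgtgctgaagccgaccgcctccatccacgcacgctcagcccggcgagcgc
The SMG1 window was 75.6% G or C and held 6 GC boxes. The SMG9 window was 68.8% G or C and held none of the 6 motifs searched. The median over 24885 RefSeq promoter windows of this length was 57.6%. GGGCGG occurred in 41.7% of those windows, CCGGAAG (an ETS motif) in 8.81%, the NRF1 palindrome in 1.14%, the E-box CACGTG in 6.44%, CCAAT in 33.4% and CTCGCGAGA in 0.635%, each counted on both strands. Of the 8 factors with an entry, all but SMG9 had a GC box. These matches are descriptions of the letters only.

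SMG1, the kinase of UPF1, was the factor whose RNA stood furthest above the control in the knockdown, by about the same factor at day 3 and day 14. At day 0 its RNA was 229 and 226 CPM with sgGal4 and 224 and 239 with sgDDX3, and the groups overlapped. At day 3 it was 241 and 210 CPM against 303 and 296. By day 14 the values were 217 and 209 CPM against 289 and 280. Both sgDDX3 libraries lay above both sgGal4 libraries at each of the later days. The level was 1.33-fold higher at day 3 (log2 difference 0.41, SE 0.07, adjusted p = 0.00053) and 1.34-fold higher at day 14 (0.42, SE 0.07, adjusted p = 0.000443). Both calls held in every alternative run, with adjusted p of at most 0.0241 at day 3 and 0.018 at day 14 when single libraries were left out. The change of the guide difference since day 0, an interaction test added after the data were seen, was 0.38 (SE 0.10, adjusted p = 0.0366) at day 3 and 0.39 (SE 0.10, adjusted p = 0.0283) at day 14. Over all genes 3.7% and 4.46% passed that test (2.37% and 2.66% with a higher value), and SMG1 was the only one of the 9 factors to do so in RNA. In footprints 0 of 9 passed it (1 and 2 at an unadjusted p under 0.05, 0 with DESeq2), beside 0.121% and 0.106% of all genes. Leaving out single libraries took the 2 interaction values as far as adjusted p = 0.187 and 0.153, and SMG1 lost the call in 7 of 8 such fits at day 3 and 6 of 8 at day 14.

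The genome carries partial copies of SMG1, and 7 of these pseudogenes, SMG1P1 to SMG1P7, have entries of their own in the count tables. They held 47.3% to 55.5% of the RNA counts of the family and 50% to 61.4% of its footprint counts, so a read's assignment within the family is uncertain. None of the 7 was called in any guide comparison. Their RNA differences at day 3 and day 14 ran from -0.08 (SMG1P6, day 14) to 0.17 (SMG1P5, day 3, adjusted p = 0.187). When SMG1 was summed with the 7 entries, the RNA difference was 0.22 (SE 0.06, adjusted p = 0.0209) at day 3 and 0.25 (SE 0.06, adjusted p = 0.0107) at day 14, so the calls remained on a smaller difference. The summed interaction values were 0.19 (adjusted p = 0.276) and 0.22 (adjusted p = 0.186), which do not pass.

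**Figure D1:**
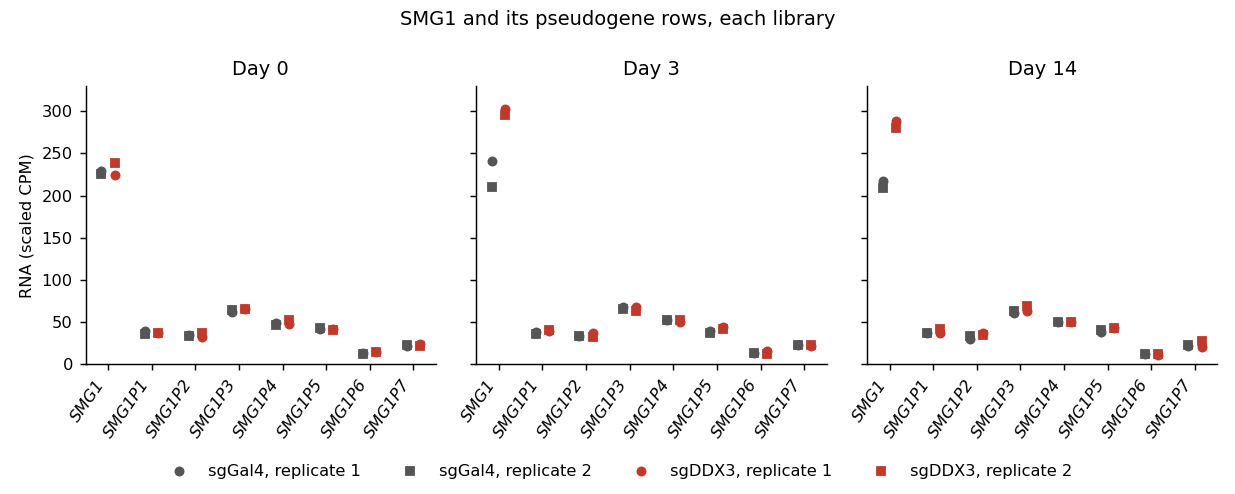
RNA of SMG1 and of its 7 pseudogenes in scaled CPM (vertical axis), one panel per day, circles for replicate 1 and squares for replicate 2, grey for sgGal4 and red for sgDDX3. The libraries separate by guide for SMG1 at day 3 (303 and 296 against 241 and 210 CPM) and day 14, and no pseudogene was called.

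SMG1 footprints were also higher with sgDDX3 at day 3. They were 47.4 and 48.5 CPM with sgGal4 and 50.5 and 50.0 with sgDDX3 at day 0. At day 3 they were 41.0 and 42.9 CPM against 56.6 and 60.0, a 1.39-fold higher level (log2 difference 0.48, SE 0.09, adjusted p = 0.0159). At day 14 they were 45.8 and 42.9 CPM against 59.9 and 53.2, with a difference of 0.35 (SE 0.09) that missed the threshold (adjusted p = 0.0522). The groups did not overlap at any of the 3 days. The day 3 call was lost without sgDDX3 replicate 2 (adjusted p = 0.0772), without sgGal4 replicate 1 (0.164) or replicate 2 (0.0864), and when the pseudogene entries were added (0.32, adjusted p = 0.0742). With those entries the day 14 value was 0.09 (SE 0.09, adjusted p = 0.656). Footprints relative to RNA differed between the guides by 0.05 (SE 0.12) at day 3 and -0.05 (SE 0.12) at day 14, neither called.

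SMG9, which binds SMG1 with SMG8 and restrains the kinase, was the one factor whose RNA was lower than the control by the test. At day 0 its RNA was 44.2 and 45.3 CPM with sgGal4 and 48.6 and 42.5 with sgDDX3. At day 3 it was 51.7 and 55.2 CPM against 42.4 and 47.6. At day 14 it was 59.9 and 59.9 CPM against 50.7 and 42.8. The guide groups overlapped at day 0 and were apart at day 3 and day 14, with sgDDX3 below. The difference was -0.25 (SE 0.09) at day 3, which did not pass (adjusted p = 0.0714), and -0.36 (SE 0.09, adjusted p = 0.0139) at day 14, a 1.28-fold lower level. At day 14 SMG9 no longer passed once sgDDX3 replicate 2 (-0.24, adjusted p = 0.114) or either sgGal4 library (0.0605 and 0.1) was left out. With sgGal4, SMG9 RNA was 0.42 higher at day 14 than at day 0 (log2, SE 0.09, adjusted p = 0.004), a call lost without sgGal4 day 0 replicate 1 (0.0609), and with sgDDX3 the same difference was 0.03 (SE 0.10). The difference between those time courses was -0.39 (adjusted p = 0.109), not called. Over the 8 fits without a library it ran from -0.51 (sgDDX3 day 14 replicate 1 left out, adjusted p = 0.0243) to -0.27, with adjusted p up to 0.418.

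Footprints of SMG9 did not show the RNA difference. At day 14 they were 59.5 and 54.8 CPM with sgGal4 and 56.8 and 55.7 with sgDDX3, and the groups overlapped (difference -0.02, SE 0.11, adjusted p = 0.945). Their day 14 over day 0 difference was 0.38 (adjusted p = 0.0818) with sgGal4 and 0.35 (adjusted p = 0.0674) with sgDDX3, neither called. Footprints relative to RNA were 0.34 higher in the knockdown at day 14 (SE 0.14), the largest such value among the 9 factors, with an unadjusted p of 0.0254 and an adjusted p of 0.317. SMG8, the partner of SMG9, was not called in any comparison. Its RNA lay between 24.4 and 29.3 CPM in all 12 libraries and its guide difference was -0.02 (SE 0.10) at day 3 and 0.07 (SE 0.10) at day 14.

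SMG6, the endonuclease, had higher RNA with sgDDX3 at both later days. Its RNA was 26.0 and 25.8 CPM with sgGal4 and 25.1 and 25.3 with sgDDX3 at day 0. At day 3 it was 26.6 and 28.0 CPM against 33.9 and 32.6. The day 14 values were 30.0 and 29.2 CPM against 37.5 and 33.8. At both later days the sgDDX3 libraries lay above the sgGal4 libraries, while at day 0 they lay just below them. The difference was 0.30 (SE 0.09, adjusted p = 0.0245) at day 3 and 0.27 (SE 0.09, adjusted p = 0.0453) at day 14. These calls were close to the threshold. SMG6 missed the threshold at day 3 with no filter on low counts (0.0857) and on leaving out sgDDX3 replicate 1 (0.142) or either sgGal4 library (0.202 and 0.0596). At day 14 it missed it with DESeq2 (0.0894), with no filter (0.24), and on leaving out sgDDX3 replicate 1 (0.304) or either sgGal4 library (0.109 and 0.264).

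SMG6 had the fewest footprints of the 9 factors, 89 to 218 counts a library. At day 14 its footprints were 14.9 and 15.6 CPM with sgGal4 and 20.3 and 20.9 with sgDDX3, groups that were apart, with a difference of 0.43 (SE 0.13) that was not called (adjusted p = 0.0862). The day 3 values were 14.0 and 14.9 CPM against 16.8 and 18.8 (0.31, SE 0.13, adjusted p = 0.235). HIC1, an overlapping gene, had up to 49.2 CPM of footprints, and whether its reads touch the SMG6 count was not tested. SMG5, the adaptor, was not called in any comparison with all libraries in the fit. Its RNA was 179 and 171 CPM with sgGal4 at day 14 and 205 and 165 with sgDDX3, whose libraries lie on either side of the controls. The SMG5 difference of 0.08 (adjusted p = 0.603) became 0.23 (adjusted p = 0.0459) without the lower sgDDX3 library, replicate 2, and -0.09, not called, without replicate 1, so its sign depended on which was kept.

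Among the UPF proteins, UPF2, the bridge, was called at day 14. Its RNA was 53.0 and 45.1 CPM with sgGal4 and 46.5 and 51.5 with sgDDX3 at day 0, and 52.9 and 46.4 against 53.0 and 52.2 at day 3. At day 14 it was 51.4 and 48.8 CPM against 65.2 and 60.0, a 1.25-fold higher level (0.33, SE 0.09, adjusted p = 0.0228). The guide groups were apart at day 14 and overlapped at day 0 and day 3. Leaving out sgDDX3 replicate 1 (0.128) or either sgGal4 library (0.0605 and 0.206) ended the call. UPF2 footprints at day 14 were 30.7 and 35.3 CPM against 41.4 and 41.1 (0.32, SE 0.12, adjusted p = 0.184).

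UPF3A and UPF3B are paralogs that link UPF2 to the exon junction complex. UPF3A RNA was 60.0 and 59.6 CPM with sgGal4 and 62.9 and 71.6 with sgDDX3 at day 0, so its groups were already apart there (0.16, SE 0.08, adjusted p = 0.999). It was 69.8 and 66.2 CPM against 77.0 and 81.8 at day 3, and 69.6 and 67.0 against 80.5 and 81.7 at day 14. The difference was 0.22 (SE 0.08, adjusted p = 0.0702) at day 3 and 0.25 (SE 0.08, adjusted p = 0.0399) at day 14. The day 14 call was lost with no filter on low counts (0.167) and in all 4 fits that left out a library of that day (0.0748 to 0.263), and the change since day 0 was only 0.09 (SE 0.11). Adding its 3 pseudogene entries, which held 8.7% to 11% of the family's RNA counts, left 0.24 (adjusted p = 0.0432). UPF3A footprints lay between 35.8 and 41.4 CPM in all libraries and were not called. UPF3B RNA at day 14 was 22.8 and 24.5 CPM with sgGal4 and 29.9 and 21.0 with sgDDX3, overlapping groups (0.10, SE 0.13).

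UPF1, the helicase, was called over time and not between the guides. Its RNA was 89.6 and 95.2 CPM at day 0 with sgGal4, 102 and 107 at day 3 and 134 and 126 at day 14. With sgDDX3 it was 102 and 92.8, then 100 and 118, then 157 and 131 CPM. Every day 14 library lay above every day 0 library. The rise from day 0 to day 14 was 0.49 (SE 0.09, adjusted p = 0.00115) with sgGal4 and 0.56 (SE 0.09, adjusted p = 0.000124) with sgDDX3, and both calls held in every alternative run. The guide difference was 0.15 (SE 0.09, adjusted p = 0.313) at day 14, which became 0.27 (adjusted p = 0.0355) without sgDDX3 replicate 2 and 0.01 (adjusted p = 0.974) without replicate 1. UPF1 footprints rose by 0.57 (SE 0.10, adjusted p = 0.00425) with sgDDX3, a call lost without day 0 replicate 2 (0.0815), and the same difference with sgGal4 was 0.35 (SE 0.10, adjusted p = 0.0831), not called.

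**Figure D2:**
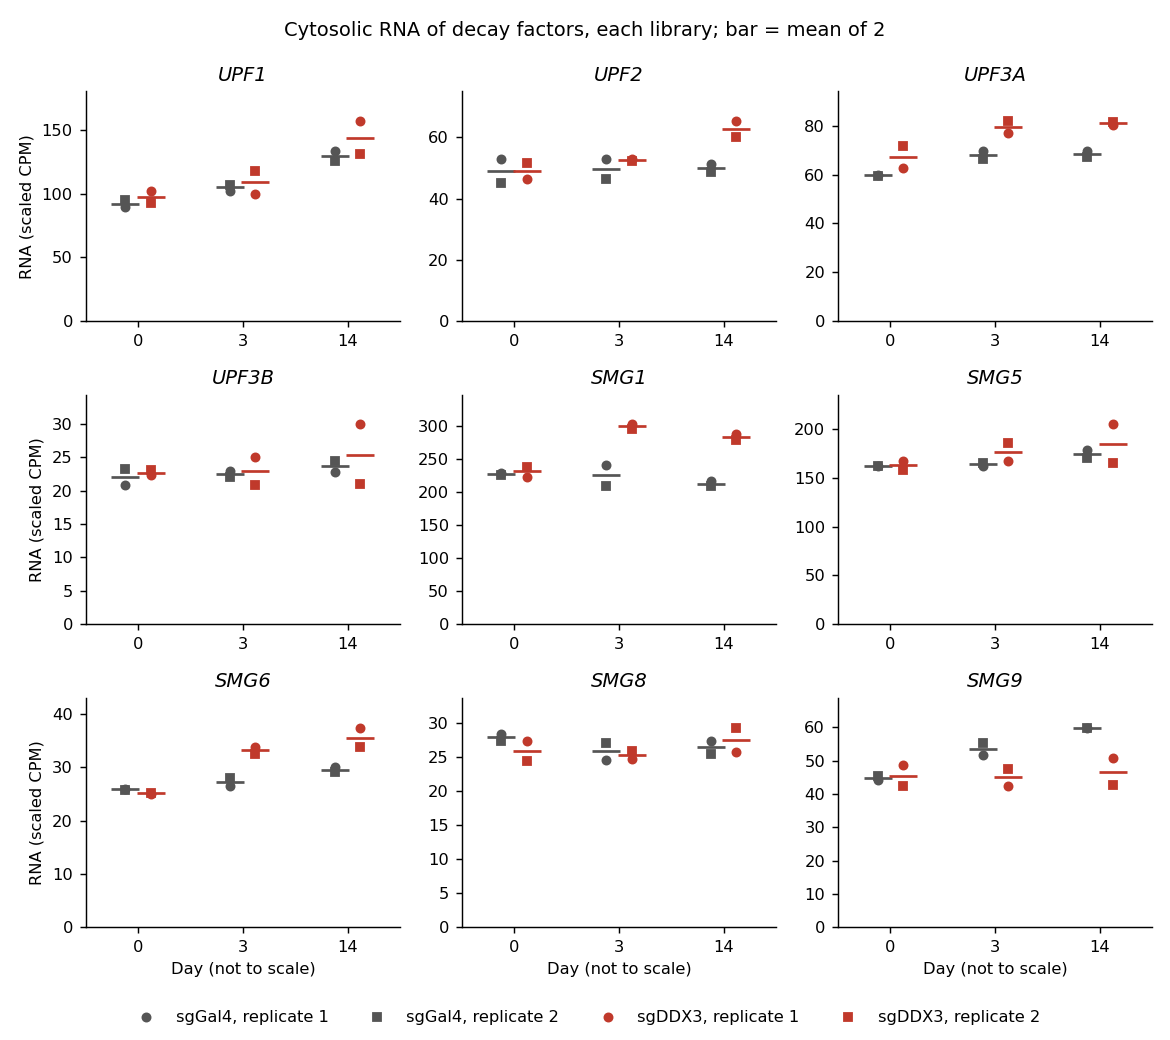
RNA of each factor in scaled CPM (vertical axes, from 0) at day 0, 3 and 14, circles for replicate 1, squares for replicate 2, bars for the mean of the 2 libraries, grey for sgGal4 and red for sgDDX3. SMG1 separates by guide at day 3 and day 14, SMG9 separates the other way (59.9 and 59.9 against 50.7 and 42.8 CPM at day 14), and UPF1 climbs in both arms.

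**Figure D3:**
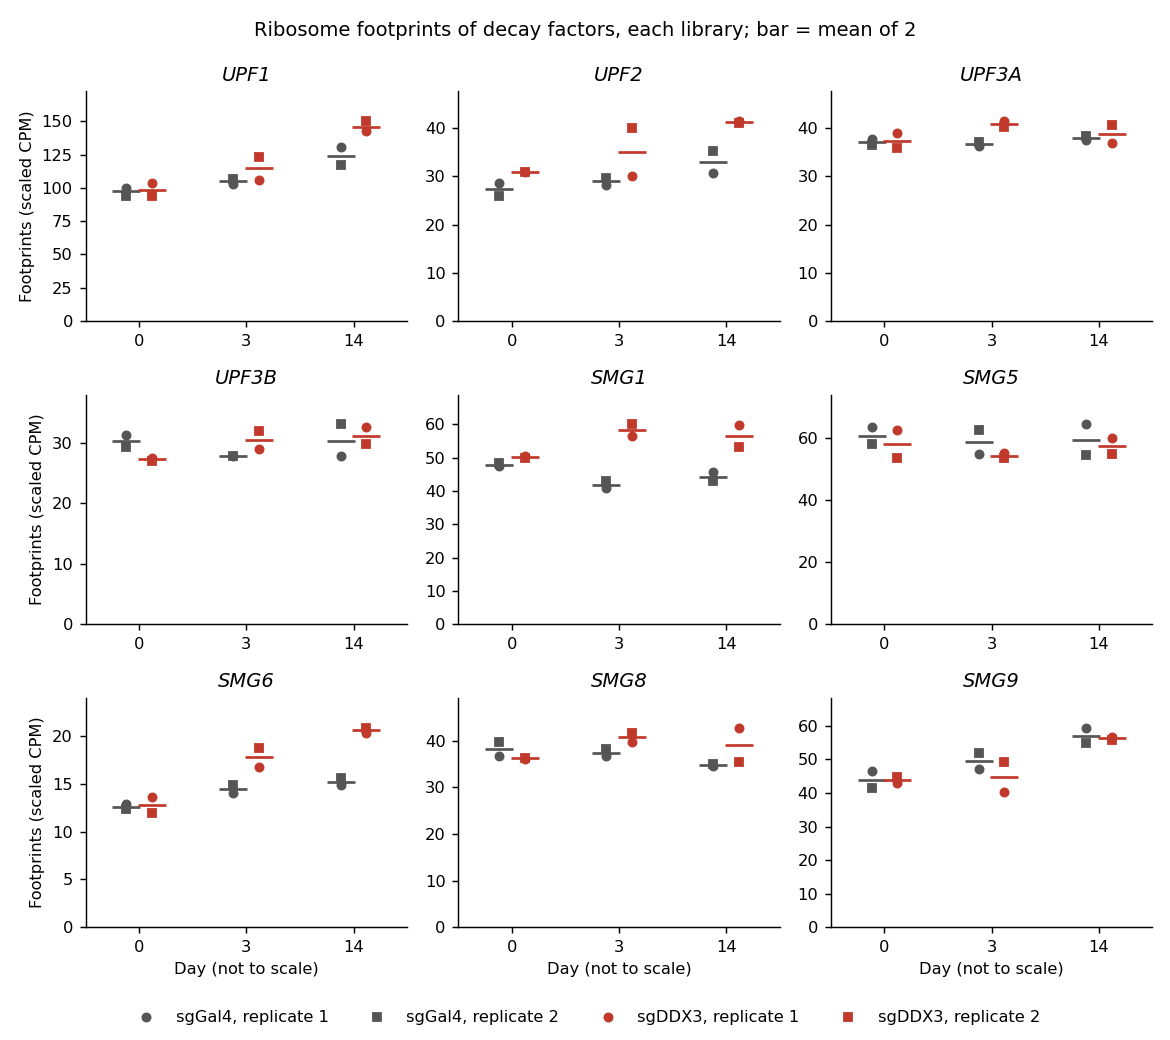
Ribosome footprints of each factor in scaled CPM (vertical axes, from 0), drawn like the RNA plot. SMG1 and SMG6 lie higher with sgDDX3 at day 14 (59.9 and 53.2 against 45.8 and 42.9 CPM for SMG1), and SMG9 footprints overlap between guides.

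Counted together, 0 of 9 factors were called in RNA at day 0 (0 at an unadjusted p under 0.05, 0 with DESeq2), where 0.00547% of all genes were called. At day 3 the count was 2 higher and 0 lower, where 14.1% of all genes were called (7.68% higher and 6.39% lower). At day 14 it was 4 higher (SMG1, UPF2, UPF3A and SMG6) and 1 lower (SMG9), where 14.6% of all genes were called (8.44% higher and 6.18% lower). The median difference of the 9 was 0.07 at day 3 and 0.15 at day 14, beside medians of -0.006 and -0.008 over all genes. Guide groups were apart for 3 factors at day 0, 5 at day 3 and 5 at day 14, beside 38.4%, 53.7% and 51.9% of all genes. These shares are close to the background. No factor passed the test of a change in the guide difference from day 3 to day 14 in RNA, footprints or footprints relative to RNA (0 called, 0 at an unadjusted p under 0.05, 0 with DESeq2 in each), where 0.164%, 0.126% and 0.0269% of all genes did.

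In footprints 0 of 9 were called at day 0 (0 at an unadjusted p under 0.05, 0.0101% of all genes called), 1 higher at day 3 (3.8%, with 1.55% higher) and 0 at day 14 (3.4%). At day 14, 4 factors had an unadjusted p under 0.05 (SMG1, SMG6, UPF2 and UPF1, with differences of 0.35, 0.43, 0.32 and 0.24), and DESeq2 called 0 at day 0 and day 14. Footprint groups were apart for 4, 6 and 5 factors at day 0, 3 and 14, beside 37.3%, 47.6% and 44.1% of all genes. Footprints relative to RNA, tested through a guide by assay interaction, gave 0 calls at day 0, 3 and 14 with edgeR and with DESeq2, where 0.00673%, 5.41% and 1.72% of 14853 genes were called. An unadjusted p under 0.05 occurred 0, 0 and 1 times. The values ran from -0.24 (SMG5 at day 3, SE 0.15) to 0.34 (SMG9 at day 14). In simulated data of this design at day 3, edgeR recovered 84% of RNA differences of 0.5 on the log2 scale. It recovered 24% of those in footprints and 16% of those in the ratio. The simulation gave every gene of an assay the same spread and changed only a small set of genes with higher counts, unlike the data. Sizes under 0.5 were not simulated, and every factor called between the guides had a difference under 0.5.

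**Figure D4:**
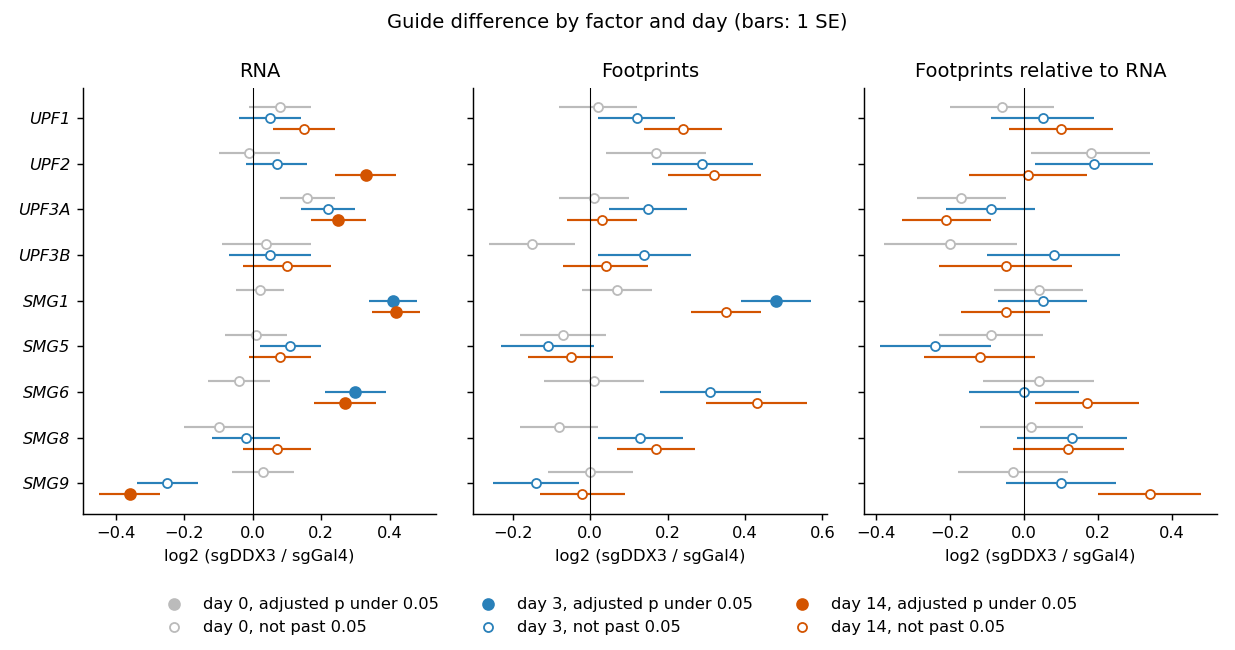
Log2 difference of sgDDX3 over sgGal4 (horizontal axes) for each factor in RNA, footprints and footprints relative to RNA, with bars of 1 SE, grey for day 0, blue for day 3 and orange for day 14. Filled points passed an adjusted p of 0.05, which in RNA at day 14 were SMG1 (0.42), UPF2 (0.33), SMG6 (0.27), UPF3A (0.25) and SMG9 (-0.36).

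Over time in the control arm, RNA of 0 factors changed by day 3 (2 at an unadjusted p under 0.05, 0 with DESeq2, 5.68% of all genes called) and 2 were higher at day 14, UPF1 and SMG9 (16.2%, with 7.7% higher). With sgDDX3, 3 were higher at day 3, SMG1 (0.37), SMG6 (0.41) and UPF3A (0.24), where 20.5% of all genes were called and 11.1% were higher. At day 14, 5 were higher, where 26.2% were called and 13.4% were higher. These were UPF1 (0.56), SMG6 (0.50), UPF2 (0.36), SMG1 (0.30) and UPF3A (0.28), and no factor was lower at either day. Without sgDDX3 day 0 replicate 1 the 5 became 2, as UPF2 (0.109), UPF3A (0.216) and SMG1 (0.0678) lost the call, and SMG1 also lost it when summed with its pseudogenes (0.0674). Without day 14 replicate 2 UPF3B (0.40, adjusted p = 0.0169) and SMG5 (0.33, adjusted p = 0.00246) were called too, whereas without replicate 1 they were at -0.10 (adjusted p = 0.679) and 0.02 (adjusted p = 0.916). UPF3A at day 3 lost its call without day 0 replicate 1 (0.363), without day 3 replicate 2 (0.149) and with no filter (0.101). In footprints, 0 factors were called with sgGal4 at either day (1.26% and 2.47% of all genes; 0 and 3 at an unadjusted p under 0.05; 0 with DESeq2). With sgDDX3, SMG6 was 0.49 higher at day 3 (adjusted p = 0.0479, 7.55% of all genes called, 3.73% higher), and UPF1 (0.57) and SMG6 (0.69, adjusted p = 0.00725) were higher at day 14 (7.78%, 4.69% higher). The SMG6 day 14 value gave adjusted p = 0.116 without day 0 replicate 2, and the day 3 call was lost in all 4 fits without a library (0.0845 to 0.297). The guide and time comparisons share the sgDDX3 libraries of the later days.

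The factors differed in how many footprints they had for their RNA. In sgGal4 at day 0 the ratio of footprint to RNA CPM was 0.21 for SMG1, at the 4.05 percentile of 14853 genes, and stayed between 0.186 and 0.217 over the 6 guide and day groups. SMG5 (0.374), SMG6 (0.488), UPF2 (0.558) and UPF3A (0.621) were also below the median of 0.812. SMG9 (0.982), UPF1 (1.05), SMG8 (1.37) and UPF3B (1.38) were above it. The ratio depends on how much of each RNA is coding sequence and on reads shared with pseudogenes, so it is a description of these libraries.

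Across the 12 RNA libraries, which share guides and days, the pairs of factors with the highest Pearson r of log2 CPM were UPF3A with SMG6 (0.838), UPF3A with SMG1 (0.818) and UPF1 with SMG5 (0.803), and the lowest was SMG1 with SMG9 (-0.556). Of 9813 other genes with a symbol and at least 10 CPM, the RNA of USP7 (0.99), SLC35E1 (0.973) and MAP4K4 (0.972) was most like that of SMG1. MAPK8IP3 (0.987), KDM5C (0.979) and INCENP (0.978) were most like UPF1, and PFKM (0.949), TMSB10 (0.927) and GMPPA (0.92) were most like SMG9.

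Other genes of the pathway were read from lists chosen by function, with earlier results of these data known. Their counts in RNA stand beside the 14.1% of all genes called at day 3 (7.68% higher, 6.39% lower) and 14.6% at day 14 (8.44% higher, 6.18% lower). Of 10 accessory factors, RNA of 1 was higher and 3 lower at day 3, and 1 higher and 1 lower at day 14. At day 3 the calls of MOV10 (0.38) and PPP2CA (-0.28), a phosphatase subunit, each ended in 3 of 4 fits without a library (up to 0.173 and 0.0985). MOV10, a helicase that associates with UPF1, went from 76.1 and 85.6 CPM with sgGal4 to 123 and 110 with sgDDX3 at day 14 (0.52, SE 0.09, adjusted p = 0.000683), and its footprints were also higher (0.72, SE 0.11, adjusted p = 0.00431). RUVBL2, an ATPase that aids assembly of the SMG1 kinase, was lower at day 3 (-0.39, adjusted p = 0.00191) and day 14 (-0.37, adjusted p = 0.0031). The day 3 call of RUVBL2 was lost without sgDDX3 replicate 1 (0.0507). Of 10 exon junction complex genes, 0 were called between the guides in RNA or footprints with edgeR or DESeq2, and 1 had an unadjusted p under 0.05 in either assay at day 3 and at day 14. Of 5 termination genes tested in RNA, 2 were higher at day 3 (7.68% of all genes) and 1 at day 14 (8.44%), PABPC4, a cytoplasmic poly(A)-binding protein, at both (0.33 and 0.32). Its day 14 call ended without sgGal4 replicate 2 (0.0964), and that of PABPC1, the other gene at day 3, ended in 3 of 4 fits without a library (up to 0.212). Of 16 mRNA decay enzymes, 0 were higher and 3 lower at day 3 (CNOT8, CNOT6 and DCP2), and 2 were higher and 0 lower at day 14 (DIS3L and PAN3). With 14.1% and 14.6% of all genes called, these counts are near the background. Each of these 5 calls was lost without at least 1 library, CNOT8 without sgDDX3 replicate 1 (0.0775), DIS3L without sgGal4 replicate 2 (0.168), and CNOT6, DCP2 and PAN3 at up to 0.28, 0.21 and 0.25.

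Endogenous targets of the pathway were read from counts per gene, which do not separate transcript forms, and decay activity was not measured. In RNA, 24 of 25 targets were tested, and they did not move one way. At day 3, 3 were higher and 7 lower, and at day 14, 4 were higher and 5 lower, with medians of -0.06 and -0.05 beside -0.006 and -0.008 over all genes, of which 14.1% and 14.6% were called. SNHG12, a small nucleolar RNA host gene, had 17.6 and 16.5 CPM with sgGal4 at day 14 and 51.2 and 37.4 with sgDDX3 (1.39, SE 0.15, adjusted p = 1.81e-06). ATF4, a stress-response transcription factor, was lower at day 14, with 762 and 761 CPM against 521 and 626 (-0.41, SE 0.07, adjusted p = 0.000559). ATF4 was also lower at day 3 (-0.24, adjusted p = 0.0304). DDIT3, a target of ATF4, was lower at both days (-0.50 and -0.66), with 38.9 and 37.6 CPM against 20.0 and 28.4 at day 14. Its day 3 call ended without sgGal4 replicate 1 (0.133). GADD45A (-0.61) and SRSF3 (-0.32), a growth-arrest gene and a splicing factor, were lower at day 3. GADD45A RNA was also lower at day 14 (-0.37, adjusted p = 0.0178). Its footprints were lower at day 3 (-0.45, adjusted p = 0.0404) and day 14 (-0.47, adjusted p = 0.031). In footprints 3 of 23 were higher and 1 lower at day 3 (3.8% of all genes called), and 3 higher and 2 lower at day 14 (3.4%), among them GAS5 (174 and 247 against 405 and 341 CPM, 0.82, adjusted p = 0.00807), another such host gene. The GAS5 call ended on leaving out replicate 1 of sgDDX3 (0.0927) or of sgGal4 (0.0545). SNHG1 footprints were already higher with sgDDX3 at day 0, with 385 and 400 CPM against 693 and 680 (0.81, SE 0.09, adjusted p = 0.00582). That call was lost in all 4 fits without a library of that day (differences of 0.78 to 0.84). They were also higher at day 3 (0.60, adjusted p = 0.00304), a call kept in every alternative run, and at day 14 (0.37, adjusted p = 0.0324). SNHG1 footprints relative to RNA were called higher at day 0 (0.77), day 3 (0.85) and day 14 (0.50). The day 0 and day 14 calls of that ratio were lost in 1 and 2 of 13 alternative runs. SNHG1 RNA was lower at day 3 (-0.27, adjusted p = 0.0106).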

How the data were processed

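RNA-seq libraries were depleted of rRNA and prepared with a directional kit, per the labels' protocols. The deposited values are counts, whole numbers for every gene in separate RNA-seq and footprint tables, and they carry no scaling. STAR 2.7.5a, Bowtie2 2.4.1, DESeq2, cutadapt 3.4 and the GRCh38 build are named in the submitters' processing notes. How reads were counted, by which strand, and what became of multiply aligned reads is not given in the sources used here. Of 58037 genes, 45 Y-linked repeats of X-linked genes were left out. A symbol was found for 41445 genes (71.5%). Counts were scaled by TMM within each assay, filtered with filterByExpr (minimum count 10) and tested by edgeR 4.0.16 quasi-likelihood fits (R 4.3.3) over all 12 libraries of an assay, or 24 for footprints relative to RNA, with Benjamini-Hochberg adjustment over all genes and a threshold of 0.05. Biological coefficients of variation were 6.13% (RNA), 9.99% (footprints) and 7.08% (both). The test was checked on simulated data. DESeq2 1.42.0, other scalings, no filter, a replicate block and leaving out each library were alternatives. Tables and plots used Python 3.11.15, pandas 2.3.3 and matplotlib 3.10.9. All 9 factors, DDX3X, every SMG1 and UPF3A pseudogene, up to 3 called genes with the smallest p of each list and comparison, and the 3 genes most like a factor could be named. CPM values were computed from the counts. The factors and lists were chosen with earlier results of these data known. Promoters are from RefSeq, GRCh38.p14, with 8 of 9 factors matched. The test of 1 marker gene is not reported here.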

Additional observations from a re-analysis of the deposited data

Results flagged for a closer look

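The guide difference itself changed between days, by the edgeR quasi-likelihood test of that change, for 6 named genes. Passing this test was one way for a listed gene to be named, so the 6 is not a rate. Over all genes, 3.7% passed it in RNA from day 0 to day 3, 4.46% from day 0 to day 14 and 0.164% from day 3 to day 14. In footprints 0.121% passed from day 0 to day 3 and 0.126% from day 3 to day 14. For DDX3X in RNA the change was -2.08 from day 0 to day 3 (adjusted p = 3.3e-08), 1.57 from day 3 to day 14 (7.16e-06) and -0.51 from day 0 to day 14 (0.0368). In DDX3X footprints it was -1.93 (0.000294) from day 0 to day 3 and 1.43 (0.00579) from day 3 to day 14. SMG1 RNA changed by 0.38 from day 0 to day 3 (0.0366) and by 0.39 from day 0 to day 14 (0.0283). Both SMG1 calls were lost in most fits that left out a single library, where the values ran from 0.30 to 0.50 and from 0.35 to 0.44. Summed with its pseudogene entries, SMG1 changed by 0.19 (0.276) and 0.22 (0.186), neither called. SNHG12 RNA changed by 1.5 from day 0 to day 14 (0.000234) and by 1.16 from day 3 to day 14 (0.0166). DDIT3 RNA changed by -0.63 from day 0 to day 3 (0.0363) and by -0.8 from day 0 to day 14 (0.00845). From day 0 to day 14, ATF3 RNA changed by -0.71 (0.0153) and ATF4 RNA by -0.38 (0.0343). With sgGal4, DDIT3 RNA went from 23.8 and 22.2 CPM at day 0 to 37.9 and 33.7 at day 3, while with sgDDX3 it was 26.5 and 23.9, then 25.5 and 25.8. The comparisons with day 0 were added after the data were seen.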

How the results depend on the processing

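Of 2416 values of single factors under alternatives, 2352 stayed on the same side of the threshold. A call was lost for 59 and gained for 5, and 0 called values changed direction. Most of the 2416 belong to comparisons not called in the main fit, so the 2352 do not measure how stable the calls were. Among uncalled values 179 changed sign. The count of factors called in RNA between the guides at day 14 was 5, and became 3 with no filter on low counts, 3 with the replicate block and 1 to 5 when single libraries were left out. At day 3 the 2 became 1 with no filter and 1 to 2 without single libraries. In sgDDX3 RNA from day 0 to day 14 the 5 became 2 to 7 without single libraries, and in sgGal4 the 2 became 1 to 2. In footprints, the 1 factor called between the guides at day 3 became 0 to 1 without single libraries, the 2 called from day 0 to day 14 with sgDDX3 became 0 to 2, and the 1 called from day 0 to day 3 became 0 with DESeq2, with no filter, with the replicate block and in each fit without a library. The cause was not tested. Same-numbered libraries did not deviate together (correlations of -0.13 to 0.06 in RNA and -0.257 to 0.22 in footprints), so the numbers are not taken to pair samples; among the factors the block otherwise lost SMG6 (0.0618) and UPF3A (0.0541) at day 14 in RNA and the added SMG1 interaction at day 3 (0.0523). In fits that leave a group with 1 library, that library is assumed to vary like the other groups. Depth limits SMG6 footprints most, at 89 to 218 counts a library. With no filter, footprint calls between the guides over all genes went from 752 to 1594 at day 3 and from 672 to 1221 at day 14. The genes tested there rose from 19780 to 45578. In RNA at day 14, 2674 of 18287 genes were called in the main fit and 2405 with the replicate block. With no filter 2659 of 37568 were called. At day 3 the RNA calls were 2574, 2343 and 2477 in the same order.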
